A study of Mus musculus with 12 samples.

Results

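The collagen genes of the mouse soleus were taken as every protein-coding gene whose symbol is Col, a type number, the letter a and a chain number, which gave 44 of the 28997 genes in the deposited tables. The rule reads names only and uses no measured value. Messenger RNA was sequenced from the soleus, a slow hind limb muscle, of 12 mice, with 3 mice in each of 4 groups. The groups were Cdh5cre-WT mice on chow diet, Cdh5cre-WT mice on high fat diet, Cdh5Cre-NOX1CKO mice on chow diet and Cdh5Cre-NOX1CKO mice on high fat diet, each for 8 weeks. All 12 mice carried a Cre driven by Cdh5, a gene of endothelial cells, so the recombinase was also present in the groups without the NOX1 deletion, and muscle fibres and fibroblasts were not its target. Strain, age and sex are not given in the sources used here. Per the series title, the study asked how NOX1 in endothelial cells bears on obesity and on muscle mitochondria. The tables name the groups only as G1 to G4, and nothing in the labels says which genotype or diet a code stands for. Each comparison is therefore given by code and is assigned neither to the deletion nor to the diet.

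Collagens are secreted proteins whose chains wind into a helix and build the extracellular matrix. Fibrillar collagens form the cables of tendon and of the connective tissue sheaths around muscle fibres and bundles. Type IV forms the sheet of the basement membrane that wraps each muscle fibre and each capillary, and type VI forms beaded filaments that tie the basement membrane to the tissue around it. Fibril-associated collagens sit on the surface of fibrils, multiplexins lie at the outer face of basement membranes, transmembrane collagens span the cell surface, and short-chain collagens form networks in vessels and other tissues. In muscle most of these genes are expressed by fibroblasts and vascular cells. The chains of some heterotrimers are transcribed from neighbouring genes, while those of others, such as Col1a1 and Col1a2, lie on different chromosomes.

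The type IV genes show the neighbouring arrangement in their sequence. Col4a1 (chr8:11198423-11312826, minus strand) and Col4a2 (chr8:11312805-11449287, plus strand) start head to head, and the first exons overlap by 22 bases. Col4a3 (chr1:82586921-82722059, plus strand) and Col4a4 (chr1:82448423-82586849, minus strand) are also head to head, with 71 bases between the starts. The log2 values of the first pair differed by at most 0.10 over the 4 comparisons, and those of the second pair by 0.03 to 0.53. The second pair had far fewer reads, with totals of 610 and 521 against 68420 and 56858. No link of the sequences to the log2 values was tested. Both stretches are printed on the plus strand of GRCm38.p6, from RefSeq. The first stretch covers chr8:11312801-11312830, with the 22 shared bases in capitals. The second stretch covers chr1:82586850-82586920.
Col4a1 and Col4a2: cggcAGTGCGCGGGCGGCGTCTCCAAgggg
Col4a3 and Col4a4: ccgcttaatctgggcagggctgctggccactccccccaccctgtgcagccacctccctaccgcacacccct

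Among the fibrillar genes, Col3a1 carried the letters TATAAA, those of a TATA box core, 117 bases before its start. Whether that match acts as a TATA box was not tested. Col5a1 carried GGGCGG, the core of a GC box, on each strand, and so did the type IV gene Col4a2. For Col3a1 and Col5a1 the 250 bases before the start are printed on the plus strand, the strand of both genes, with the motifs in capitals. They cover chr1:45311288-45311537 for Col3a1 and chr2:27886175-27886424 for Col5a1.
Col3a1: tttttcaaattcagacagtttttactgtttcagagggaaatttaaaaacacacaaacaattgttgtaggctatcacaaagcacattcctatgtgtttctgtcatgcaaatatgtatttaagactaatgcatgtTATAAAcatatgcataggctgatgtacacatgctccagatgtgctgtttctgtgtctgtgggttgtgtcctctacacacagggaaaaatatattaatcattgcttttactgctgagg
Col5a1: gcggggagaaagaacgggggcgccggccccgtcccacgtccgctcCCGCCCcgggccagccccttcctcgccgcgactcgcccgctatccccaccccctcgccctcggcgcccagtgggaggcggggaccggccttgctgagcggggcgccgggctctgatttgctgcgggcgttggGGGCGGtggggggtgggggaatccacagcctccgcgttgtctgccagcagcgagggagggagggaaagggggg

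Of the 44 collagen genes, 35 had a RefSeq window of that length, giving 38 windows. On either strand GGGCGG was present in 22 of the 38 (57.9%), against 32.7% of the 32851 windows of all genes. TATAAA was present in 5 of 38 (13.2%), against 12.4% of all windows, and CCAAT in 13 of 38 (34.2%), against 33.8%. A match describes the letters only, and some genes have more than 1 window.

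The deposited tables hold 4 comparisons, G3 against G1, G4 against G2, G4 against G3 and G2 against G1. Each gives a log2 fold change and a p-value per gene, with no value per library. A standard error (SE) was therefore calculated for every log2 from the deposited p, under a normal distribution, and is called implied. A mean level per group, in CPM (normalised reads per 1000000 of a library), was calculated from the total and the log2 values. Whether the values of the 3 mice of a group overlapped those of another group could not be seen. The positive values of G2 against G1 are not in the table used here, and were rebuilt from the other 3 comparisons. The mean library held 24905255 normalised reads. Nox1 itself had a total of 25.2 reads over all 12 libraries, and the authors' deposited table of G4 against G2 gave it a log2 of -0.71 with an unadjusted p of 0.569, so it did not tell the codes apart.

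A total of at least 100 normalised reads over the 12 libraries, a mean of 8.33 per library, was reached by 35 of the 44 genes. These were all 11 fibrillar genes, 5 of 6 type IV, 4 of 6 type VI, 5 of 9 fibril-associated, both multiplexins, 3 of 4 transmembrane, 2 of 3 short-chain and all 3 others. The other 9 were Col4a6, Col17a1, Col9a2, Col19a1, Col9a1, Col6a5, Col9a3, Col10a1 and Col6a4, with totals of 58.9 down to 4.80. They include all 3 chains of type IX and the chain of type X, which are known from cartilage. None of the 9 had an adjusted p under 0.05 in a comparison that gave it one. Col9a1, singled out after its values were seen, had unadjusted p-values of 0.0108 in G3 against G1 and 0.0216 in G4 against G3, per the authors' deposited table, on a total of 30.1 reads.

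Collagen messenger RNA made up 0.125% of all normalised reads. The summed level of the 44 genes was 1245, 1097, 1366 and 1301 CPM in G1 to G4, a ratio of 1.25 between the highest and the lowest group. Per kilobase of transcript the most abundant chains were Col4a1 at 34.6 CPM per kb, Col1a2 at 31.3, Col4a2 at 29.5, Col1a1 at 26.4 and Col3a1 at 23.5. Col6a1 followed at 14.1, Col6a2 at 10.6 and Col15a1 at 10.2 CPM per kb. The type IV sum was 425, 330, 441 and 509 CPM in G1 to G4, and the fibrillar sum was 546, 502, 604 and 508. Fewer cells of a type and less RNA per cell cannot be told apart in whole muscle.

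**Figure D1:**
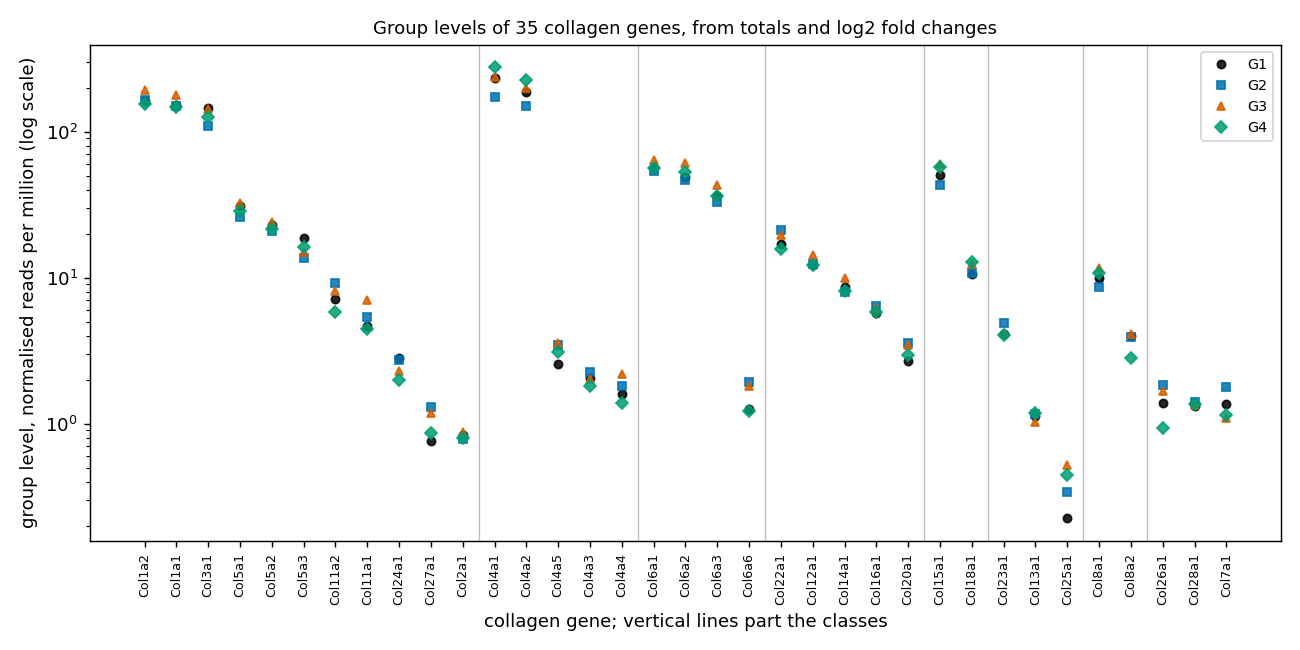
Group level in CPM of normalised reads (log scale) of the 35 collagen genes with a total of at least 100, ordered by class, with 1 symbol per group and no error bar because no value per library was used. Levels ranged from under 1 for Col2a1 and Col25a1 to 276 for Col4a1 in G4, and Col4a1 and Col4a2 had their lowest symbol in G2 and their highest in G4.

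No collagen gene passed an adjusted p of 0.05 in any comparison. Among the 44 collagen genes the authors' deposited table called 0 in G3 against G1, where 0.21% of all genes tested were. Of the genes given an adjusted p in the authors' deposited table, no collagen gene and 1.38% of all genes were called in G4 against G2, and none and 0.0394% in G4 against G3. In G2 against G1, with rebuilt values for the unlisted genes, 0 collagen genes and 0.00428% of all genes were called. At an unadjusted p under 0.05 there were 0 of the 35 in G3 against G1, 3 in G4 against G2, 1 in G4 against G3 and 0 in G2 against G1, while for the 15494 genes past the same minimum the shares were 5.63%, 9.06%, 4.83% and 2.35%.

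The log2 values leaned to 1 side in some comparisons, although no single gene passed. In G3 against G1, 29 of 35 collagen genes had a positive log2 and the median was 0.19, while 7762 of 15494 genes were positive with a median of 3.16e-04. In G4 against G3 the count was 7 of 35 with a median of -0.19, against 7887 of 15494 and a median of 0.0036. These 2 comparisons share the G3 libraries. G4 against G2 had 16 positive of 35 and a median of -0.03, and G2 against G1 had 19 and 0.02. In both of these the scarce and the abundant members leaned to opposite sides. In G4 against G2, 3 of the 13 genes with totals of 100 to 1000 were positive (median -0.32) and 13 of the 22 above that (median 0.06). In G2 against G1 the counts were 11 of 13 (median 0.37) and 8 of 22 (median -0.07). After trends of the log2 values on GC content, length and total over all genes were removed, an alternative added after the data were seen, 21 of 35 were positive in G3 against G1 with a median of 0.11, and 12 of 35 in G4 against G3 with a median of -0.10. The 35 genes are not independent replicates.

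**Figure D2:**
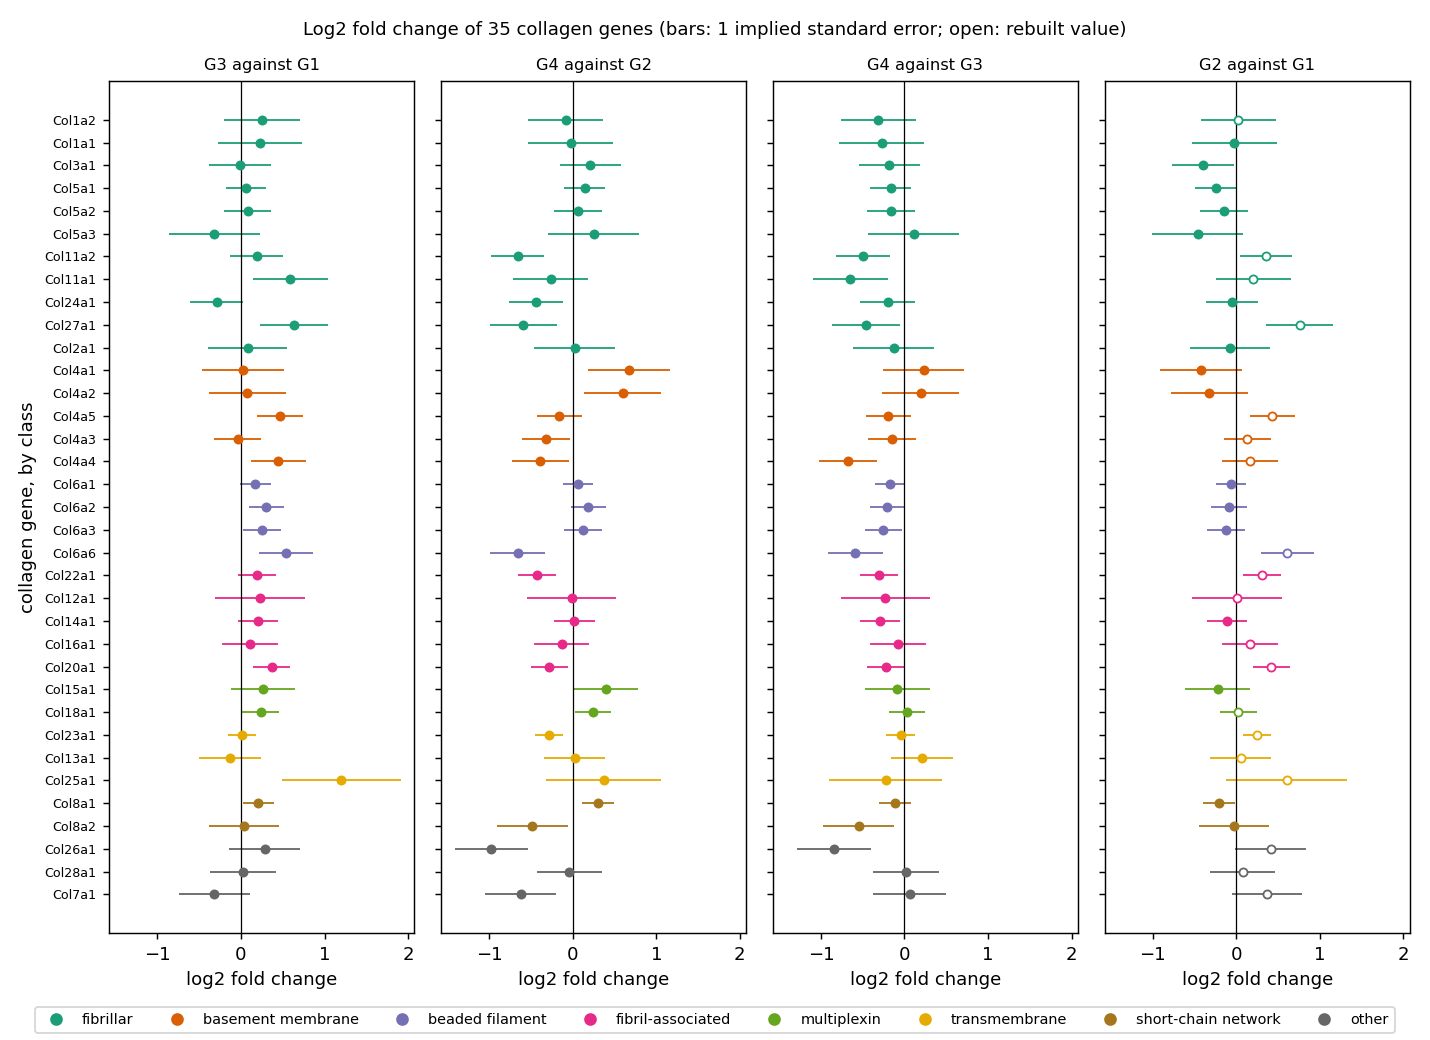
Log2 fold change of the 35 collagen genes in each of the 4 comparisons, coloured by class, with bars of 1 implied SE and open points for values rebuilt in G2 against G1. Points lie mostly right of 0 in G3 against G1 (29 of 35) and mostly left of it in G4 against G3 (28 of 35).

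Type I, the main cable of tendon and sheath, is made of the chains of Col1a1 and Col1a2. Col1a1 stood at 152, 150, 178 and 147 CPM in G1 to G4, and Col1a2 at 161, 163, 191 and 154. Both were highest in G3, by less than the error. Col1a1 had a log2 of 0.23 in G3 against G1 (implied SE 0.51, adjusted p = 1) and -0.27 in G4 against G3, per the authors' deposited table. Per the authors' deposited table Col1a2 had 0.25 and -0.31 there, with an implied SE of 0.45. The authors' deposited table of G4 against G2 gave values nearer 0, -0.03 for Col1a1 and -0.08 for Col1a2.

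Type III, a single-chain collagen of compliant sheaths that is often found beside type I, did not follow the same order. Col3a1 stood at 144, 109, 143 and 127 CPM in G1 to G4, lowest in G2. Its log2 in the authors' deposited table was -0.40 in G2 against G1 (SE 0.37) and -0.01 in G3 against G1, and neither passed. The type V chains, which start fibrils and set their thickness, were also lowest in G2. Col5a1 stood at 30.9, 26.0, 32.2 and 28.7 CPM and Col5a2 at 22.9, 20.7, 24.2 and 21.7. Over the 4 comparisons the log2 in the authors' deposited table lay between -0.25 and 0.14 for Col5a1 and between -0.16 and 0.08 for Col5a2. Col5a3, a chain of a less common type V molecule, stood at 18.7, 13.6, 14.9 and 16.1 CPM with an SE of 0.54.

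Type XI, the cartilage counterpart of type V, and the minor fibrillar genes were less abundant. Col11a2 stood at 7.15, 9.13, 8.15 and 5.78 CPM, lowest in G4. Its log2 in G4 against G2 was -0.66, per the authors' deposited table (SE 0.32, unadjusted p = 0.0372, adjusted p = 0.478). Col11a1, at 4.65, 5.35, 6.99 and 4.46 CPM, had a log2 of 0.59 in G3 against G1 and -0.65 in G4 against G3, per the authors' deposited table (SE 0.45 in both). Col27a1, a fibrillar collagen of cartilage, stood at 0.762, 1.29, 1.18 and 0.857 CPM, so that G2 and G3 were above G1 and G4. Col24a1 and Col2a1 completed the class with levels under 3 CPM. By class, 8 of 11 fibrillar genes were positive in G3 against G1, 5 in G4 against G2, 1 in G4 against G3 and 4 in G2 against G1.

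The basement membrane class had the widest span of summed levels among the 8 classes, a ratio of 1.54 between G4 and G2, and most of it was Col4a1 and Col4a2. Col4a1 stood at 232, 173, 236 and 276 CPM in G1 to G4 and Col4a2 at 187, 150, 198 and 226. Both chains were lowest in G2 and highest in G4. In the authors' deposited table of G4 against G2, Col4a1 had a log2 of 0.68 (SE 0.49, 95% interval -0.28 to 1.64, adjusted p = 0.770) and Col4a2 a log2 of 0.60 (SE 0.46, adjusted p = 0.792). The interval of Col4a1 includes 0 and values on both sides of it. In G2 against G1 the authors' deposited table gave -0.42 for Col4a1 and -0.32 for Col4a2, and in G3 against G1 it gave 0.02 and 0.08.

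The other type IV chains, which form the networks of kidney, lung and other specialised basement membranes, were far scarcer and did not share that order. Col4a5 stood at 2.57, 3.46, 3.55 and 3.10 CPM and Col4a3 at 2.07, 2.27, 2.01 and 1.82. Col4a4 stood at 1.61, 1.80, 2.19 and 1.37 CPM. The authors' deposited table of G4 against G3 gave Col4a4 a log2 of -0.67 (SE 0.34, unadjusted p = 0.0486, adjusted p = 1.0), the 1 kept collagen gene under an unadjusted 0.05 there. Col4a5 had the smallest p in G3 against G1, with a log2 of 0.47 by the authors' deposited table (SE 0.27, unadjusted p = 0.0855, adjusted p = 1).

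Endothelial markers were read beside type IV because capillaries make much of it. The sum of 12 endothelial markers was 671, 641, 701 and 733 CPM in G1 to G4, also lowest in G2 and highest in G4, over a narrower span with a ratio of 1.14. All 12 had a positive log2 in G4 against G2 with a median of 0.18, and 2 of 12 did in G2 against G1. None was called. Pecam1, an adhesion protein of endothelium, had 0.29 in the authors' deposited table of G4 against G2 (adjusted p = 0.499). Their part in the type IV levels was not tested.

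Type VI, whose loss causes a congenital muscle disease in people, is a heterotrimer of the chains of Col6a1, Col6a2 and Col6a3. The 3 genes had like log2 values and the smallest errors among the collagens with totals over 10000. Col6a1 stood at 56.4, 54.0, 63.7 and 56.3 CPM in G1 to G4, Col6a2 at 49.2, 46.3, 60.7 and 52.7, and Col6a3 at 36.0, 33.0, 42.9 and 36.0. Each was highest in G3 and lowest in G2. The log2 values in the authors' deposited table of G3 against G1 were 0.17 (SE 0.18), 0.30 (SE 0.21) and 0.25 (SE 0.23), with an adjusted p of 1 for each. In G4 against G3 the authors' deposited table gave -0.18, -0.20 and -0.25.

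Col6a6, an alternative chain known from muscle, followed another order, at 1.25, 1.91, 1.82 and 1.21 CPM in G1 to G4. It was higher in G2 and G3 than in G1 and G4. The log2 in the authors' deposited table was 0.54 in G3 against G1 (SE 0.32) and -0.66 in G4 against G2 (SE 0.32, unadjusted p = 0.0420, adjusted p = 0.499). The rebuilt value in G2 against G1 was 0.61 (SE 0.32). None of these passed.

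Several pairs of the more abundant chains that assemble into 1 molecule had like log2 values, and other pairs of chains of 1 type did not. Over the 4 comparisons the log2 values of Col4a1 and Col4a2 differed by at most 0.10, and those of Col1a1 and Col1a2 by at most 0.06, with implied SEs of 0.45 to 0.51 for the 4 genes. Within type VI the gap was at most 0.13 between Col6a1 and Col6a2, 0.08 between Col6a1 and Col6a3 and 0.06 between Col6a2 and Col6a3, with SEs of 0.18 to 0.23. Col5a1 and Col5a2 differed by at most 0.10, with SEs of 0.24 and 0.29. Each of these gaps was below the SE of either gene. These chains were measured in the same libraries. Col4a3 and Col4a4, the other head-to-head pair printed above, differed by 0.03 to 0.53, with SEs of 0.28 and 0.33. Col5a1 and Col5a3 differed by 0.11 to 0.38 and had the same sign in 2 of the 4 comparisons. The gap reached 0.40 for Col11a1 and Col11a2, 0.72 for Col6a1 and Col6a6 and 0.86 for Col4a1 and Col4a5. The 22 shared bases are a small share of the transcripts of Col4a1 and Col4a2, which are 6615 and 6450 bases long.

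The 5 kept fibril-associated collagens, of 9 measured, were all positive in G3 against G1 and all negative in G4 against G3, and none passed. The 4 below the minimum total did not share this. Col9a2, Col19a1, Col9a1 and Col9a3 had -0.68, -0.20, -4.53 and -0.14 in G3 against G1. In G4 against G3 they had -0.27, 0.53, 4.14 and 0.75. With trends on GC content, length and total removed, Col12a1 turned to -0.016 in G3 against G1 and to 0.18 in G4 against G3. Col22a1, a collagen of the junction between muscle and tendon, was the most abundant at 17.1, 21.2, 19.4 and 15.7 CPM in G1 to G4, highest in G2 and lowest in G4. Its log2 in the authors' deposited table of G4 against G2 was -0.43 (SE 0.23, unadjusted p = 0.0600, adjusted p = 0.571). Col12a1, which sits on type I fibrils, stood at 12.2, 12.3, 14.3 and 12.2 CPM with an SE of 0.54, and Col14a1, its close relative, at 8.63, 8.01, 9.94 and 8.11 with an SE of 0.24. Both were highest in G3, by less than the error. Col20a1 stood at 2.68, 3.59, 3.46 and 2.96 CPM, and its rebuilt log2 in G2 against G1 was 0.42 (SE 0.22, unadjusted p = 0.0597).

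The multiplexins, whose C-terminal ends release fragments that act on vessels, were positive in both G3 against G1 and G4 against G2. Col15a1 stood at 50.4, 43.1, 60.3 and 56.9 CPM and Col18a1 at 10.6, 10.8, 12.5 and 12.7, each higher in G3 and G4 than in G1 and G2. Per the authors' deposited table Col15a1 had a log2 of 0.26 in G3 against G1 and 0.40 in G4 against G2 (SE 0.38), and Col18a1 had 0.24 in both (SE 0.22). Neither gene passed in either comparison.

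Among the transmembrane genes, Col23a1 had the smallest SE of all 35 members, 0.17, and a log2 of -0.28 in the authors' deposited table of G4 against G2 (adjusted p = 0.665). Col13a1, a collagen of the neuromuscular junction, stood at 1.12, 1.16, 1.02 and 1.18 CPM, and its log2 lay between -0.13 and 0.21. Col25a1, which motor axons need to enter muscle, had the largest log2 of the kept members in any comparison, 1.20 in the authors' deposited table of G3 against G1. Its SE was 0.71 on a total of 114 reads, with an unadjusted p of 0.0904, and it did not pass. Col8a1 and Col8a2 stood for the short-chain networks of vessel walls, with levels under 12 CPM.

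Col26a1 had the smallest unadjusted p of the collagen genes in G4 against G2. It stood at 1.38, 1.83, 1.68 and 0.933 CPM in G1 to G4, lowest in G4. Its log2 in the authors' deposited table was -0.97 in G4 against G2 (SE 0.44, unadjusted p = 0.0261, adjusted p = 0.414) and -0.85 in G4 against G3 (SE 0.44, adjusted p = 1.0). Col7a1, the anchoring fibril of skin, and Col28a1 stood between 1.10 and 1.77 CPM in all groups.

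G3 against G1 and G4 against G2 have no group in common, so the difference between them can be tested. It was 0 of 35 called, against 0.00645% of 15494 genes. At an unadjusted p under 0.05 there were 4 of 35, Col6a6, Col27a1, Col26a1 and Col20a1, against 4.12% of all genes, and in all 4 the value of G4 against G2 was the lower. Col6a6 had the smallest p, with a difference of -1.20 (SE 0.46, unadjusted p = 0.00867, adjusted p = 0.974). Col27a1 had -1.23 (SE 0.57, unadjusted p = 0.0317) and Col26a1 -1.26 (SE 0.61, unadjusted p = 0.0389). Of the 35 genes 9 had a positive difference, with a median of -0.24, against 7975 of 15494 for all genes. The lean was wider among scarce members. Of 13 genes with totals of 100 to 1000, 1 was positive with a median of -0.63, and of the 22 above that 8 were positive with a median of -0.12. With trends on GC content, length and total removed the median over the 35 was -0.05, with 16 positive.

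**Figure D3:**
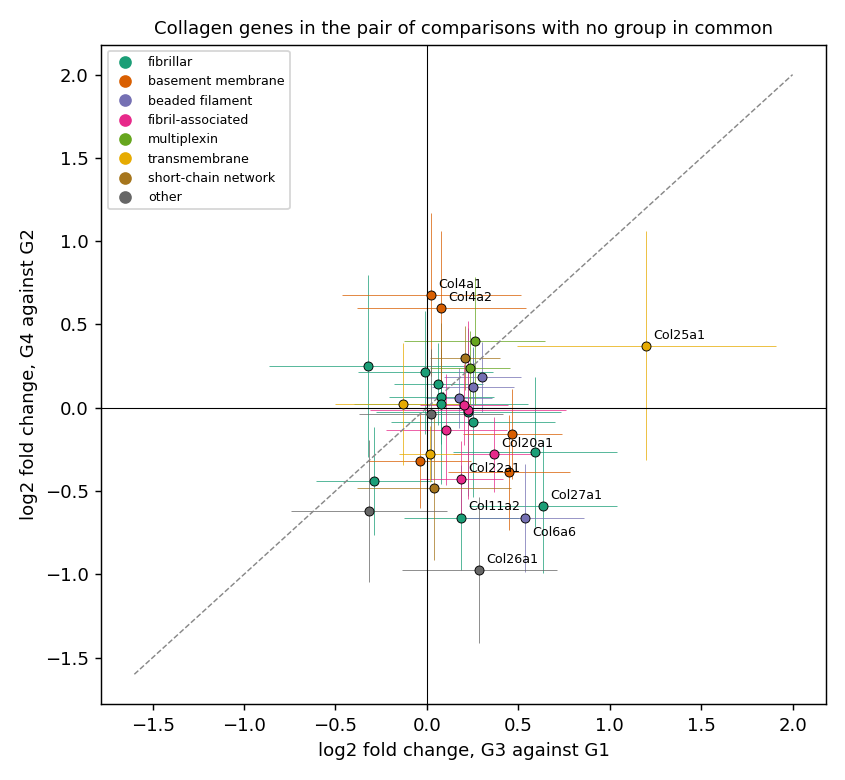
Log2 fold change of the 35 collagen genes in G3 against G1 (horizontal) and in G4 against G2 (vertical), with bars of 1 implied SE, colours by class and a dashed line where both are equal. Col4a1 and Col4a2 lie above the line at 0.68 and 0.60, and Col26a1, Col27a1 and Col6a6 lie furthest below it.

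The errors of the abundant collagens were larger than those of most genes of like total. The implied SE reflects how far libraries spread within groups, taken over all groups, and how many reads a gene had. In G3 against G1 the 9 collagen genes with totals of 10000 to 100000 had a median SE of 0.384, while the 3015 genes in that range had 0.0959, and all 9 lay above that median. From 3000 to 10000 the medians were 0.243 for 7 collagens and 0.125 for all genes, with all 7 above, and from 1000 to 3000 they were 0.324 for 6 collagens and 0.189, with 5 above. Below 1000 the 13 collagens had 0.371 and all genes 0.397. In its range 0.56% of genes had a larger SE than Col1a1, 0.73% than Col4a1, 0.96% than Col4a2, 1.06% than Col1a2 and 1.89% than Col3a1. Type VI was nearer the other genes, with 8.92% above Col6a1.

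**Figure D4:**
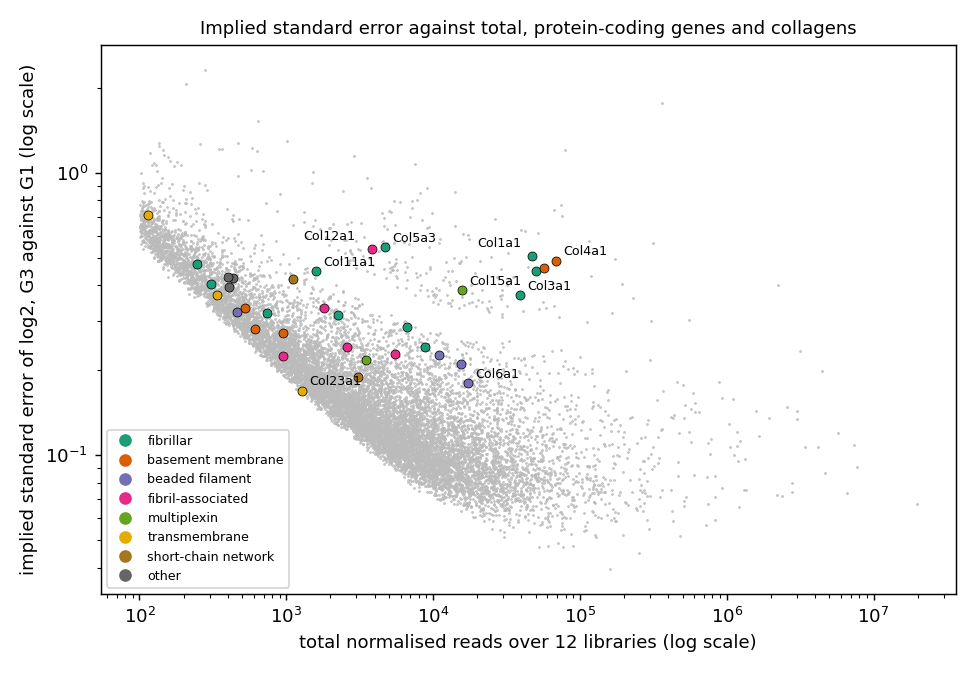
Implied SE of the log2 in G3 against G1 (log scale) against the total over 12 libraries (log scale), for protein-coding genes in grey and the 35 collagen genes in colour. The abundant collagens, among them Col1a1, Col4a1 and Col3a1, stand above the band of other genes, and Col6a1 stands nearer to it.

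This spread limits what the comparisons can show. For an unadjusted p of 0.05 in G3 against G1, Col1a1 would have needed a fold of 1.99, Col4a1 1.94, Col3a1 1.65 and Col6a1 1.28. The folds needed ran from 1.26 for Col23a1 to 2.62 for Col25a1. Smaller differences in the most abundant collagens would not have reached that unadjusted p with 3 mice a group. A call, which used an adjusted p under 0.05, would have needed larger folds than these. Tendon markers had a median SE of 0.55 over 10 genes in the same comparison, fibroblast markers 0.16 over 14 and endothelial markers 0.17 over 12. The summed level of the tendon markers was 323, 356, 415 and 346 CPM in G1 to G4 and that of the fibroblast markers 904, 881, 1007 and 878, both highest in G3. Their part in the collagen levels and in the spread was not tested.

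The genes that make collagen ready for secretion were measured beside the chains. Of 20 enzymes and chaperones of folding and modification, 19 had a total of at least 100, and none was called. Of these 17 had a positive log2 in G3 against G1, 18 in G4 against G2, 9 in G4 against G3 and 11 in G2 against G1, with medians of 0.18 in the first 2 comparisons. Colgalt2, which adds galactose to hydroxylysine, had 0.44 in the authors' deposited table of G4 against G2 (SE 0.15, adjusted p = 0.159), and P3h4, a partner of the hydroxylases, had 0.38 there (adjusted p = 0.268). The chains themselves had a median of -0.03 in that comparison.

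Genes that act on collagen after secretion were not called either. Of 12 genes of procollagen cleavage and cross-linking, 10 were positive in G3 against G1, 8 in G4 against G2, 3 in G4 against G3 and 3 in G2 against G1. Tgm2, a transglutaminase that cross-links matrix proteins, had 0.29 in the authors' deposited table of G4 against G2 (adjusted p = 0.365). Loxl1, a lysyl oxidase, had 0.30 there (adjusted p = 0.808) and -0.42 in the authors' deposited table of G2 against G1 (unadjusted p = 0.0904). Of 13 genes of collagen breakdown, 11, 9, 4 and 4 were positive in the same order. These counts mix proteases with the metalloproteinase inhibitors Timp1, Timp2, Timp3 and Timp4, so they give no direction for breakdown. Mmp15, a membrane-bound metalloproteinase, had -0.35 in G2 against G1 and Ctsb, a lysosomal protease, 0.11 in G4 against G2, per the authors' deposited table (adjusted p = 1 and 0.639).

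Of 10 collagen receptors, none was called, and 8 were positive in G3 against G1, 4 in G4 against G2, 3 in G4 against G3 and 7 in G2 against G1. Itga1, the integrin chain that binds type IV collagen, had 0.42 in the authors' deposited table of G3 against G1 (SE 0.13, adjusted p = 0.300), and Adgrg6, an adhesion receptor that binds type IV, had 0.64 there (adjusted p = 1). Of 16 other basement membrane proteins, none was called, and 10, 15, 8 and 5 were positive in the same order. Sparcl1 had 0.24 and Lama2, the laminin chain of muscle, had 0.35 in the authors' deposited table of G3 against G1, with adjusted p-values of 0.328 and 0.787.

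Among 18 proteins that coat the fibrils 1 gene was called in G3 against G1, where 0.21% of all genes were. Lum, which encodes lumican, a proteoglycan that sets fibril spacing, rose in G3 against G1 with a log2 of 0.58, per the authors' deposited table (SE 0.13, adjusted p = 0.0128). It had -0.52 in the authors' deposited table of G4 against G3, with an adjusted p of 0.133. Of the same 18 genes 15 were positive in G3 against G1, 7 in G4 against G2, 3 in G4 against G3 and 11 in G2 against G1. Lum also counts among the fibroblast markers, where Smoc2, a secreted calcium-binding protein, was the other called gene of 14, with 0.50 in the authors' deposited table of G3 against G1 (SE 0.11, adjusted p = 0.0038). The other 12 fibroblast markers were not called in any comparison, and 11 of 14 were positive in G3 against G1.

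Transforming growth factor beta signalling drives collagen transcription in fibroblasts. Of 20 of its genes 2 were called, both in G4 against G2, where 1.38% of all genes were, and in opposite directions. Ccn1, a matricellular target, rose by 0.76 on the log2 scale in the authors' deposited table (SE 0.21, adjusted p = 0.0293), and Smad3, a signal transducer, fell by 0.70 (SE 0.20, adjusted p = 0.0478). Positive values numbered 17 in G3 against G1, 9 in G4 against G2, 4 in G4 against G3 and 16 in G2 against G1. The list also holds inhibitors of the pathway, Smad6, Smad7 and Skil, so the counts give no direction for signalling.

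Markers of the other cell types in the muscle were read for the same groups. The 10 tendon markers, 5 of which also stand in the list of fibril proteins, were positive in 8, 3, 2 and 10 cases in the 4 comparisons in the order above, and none was called. Egr1, a transcription factor of tendon that also responds to stress, had 1.72 in G3 against G1 (SE 0.63, adjusted p = 0.826), and Chad, a matrix protein of cartilage and tendon, had -0.93 in G4 against G3 (SE 0.57), both per the authors' deposited table. Of the cartilage and bone markers 7 were measured and Acan, Matn3, Hapln1 and Sp7 had totals under 100. None of the 3 kept was called. Sox9 had 0.39 in G2 against G1 as a rebuilt value (SE 0.36) and Alpl 0.23 (SE 0.21).

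Vwf, which encodes the von Willebrand factor of endothelium, had 0.37 in the authors' deposited table of G3 against G1 (adjusted p = 1). Among 10 mural cell markers 8 were positive in G4 against G2 and none was called, with Abcc9 at -0.17 and Tagln at 0.37 in the authors' deposited table. None of 11 macrophage markers was called, and 0 of 11 were positive in G2 against G1, with Csf1r at -0.16 and C1qa at -0.42 in the authors' deposited table. In G4 against G3, 2 of 11 were positive, and Csf1r had -0.42 in the authors' deposited table (unadjusted p = 0.0393). Of 10 adipocyte markers 3 rose in G4 against G2, Fabp4 by 0.37, Lipe by 0.75 and Pnpla2 by 0.39 on the log2 scale in the authors' deposited table, where 1.38% of all genes were called. In that comparison 8 of the 10 were positive, from -0.64 to 0.81, and in G2 against G1 1 of 10 was. Lipe and Pnpla2 encode lipases that muscle fibres express too. No Schwann cell marker was called, with Cdh19 at 0.91 and Mbp at 0.20 in the authors' deposited table of G4 against G2. Mbp had -0.29 in that of G2 against G1 (unadjusted p = 0.0302). Muscle fibre markers took 7.98% of reads and none was called. Myh7, the slow myosin heavy chain, stood at 10039.5 CPM. Rebuilt values in G2 against G1 were 0.49 for Myh7 and 0.42 for Tnni1.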

How the data were processed

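The soleus RNA of 12 mice was made into libraries with a stranded mRNA kit from KAPA, per the labels' protocols. Bowtie2 2.1.0, RSEM 1.2.15, edgeR and the mm10 or GRCm38 build are named per the submitters' processing notes, without role or order, and no source says which step gave the p-values. Per the file headers, each of the 4 tables gives the total of a gene, the p-value of the comparison with its adjusted value, the fold change as a signed score, and the log2 fold change. The total is a deposited signal, read from its values as reads divided by size factors and summed over the 12 libraries. The deposited adjusted p-values, which hold other marks where blank, equalled a Benjamini-Hochberg adjustment of the p-values to within 3.3e-14 in the 3 tables other than G2 against G1, for which it was not recomputed. The adjusted p was blank for 10 collagen genes in G4 against G2 and 5 in G4 against G3, and was kept blank. The columns of per-sample values left out numbered 0.

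Values per library were not used here, so the planned edgeR quasi-likelihood fit, the DESeq2 fit and the removal of single libraries were not run, and the p-values the authors deposited were used at a threshold of 0.05. The implied SE of a gene was nearly the same in the 4 comparisons. Its range was at most 0.050 for the kept collagen genes and 0.0078 for those with totals of at least 1000. The p-values therefore read as resting on a spread per gene shared by all groups, not on the compared groups alone. Implied SEs divide each log2 by the normal quantile of its p-value. The table of G2 against G1 has 15652 of the 28997 genes, those with a log2 no higher than 0. It held 16 of the 35 kept collagen genes, and the other 19 were rebuilt by adding the log2 of G3 over G1 to that of G4 over G3 and taking off that of G4 over G2. For listed collagen genes the rebuilt log2 matched within 1.2e-14. The difference of G4 against G2 and G3 against G1 used the summed variances, with adjustment over 15494 genes of a total of at least 100. Rebuilt p-values of G2 against G1 were adjusted over genes of the same minimum total. Listed genes kept the deposited adjusted p, so the calls of that comparison mix 2 adjustments. RSEM can split reads between similar genes, and no source says whether counting used strand, so overlapping genes such as Col4a1 and Col4a2 are uncertain where they overlap.

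Tested on simulated data, 15494 genes with 100 changed per fold size, the difference recovered 54 at a fold of 2 and 86 at a fold of 4, with 5 false calls. G4 against G2 recovered 65 and 92, with 9 false calls. The simulated log2 values were normal with the SE of each gene known, so neither was tested. All genes had a median SE of 0.18 in G3 against G1 and collagens with totals of 10000 to 100000 had 0.384. The rates do not carry over to those collagens. Rebuilt group levels had a median error of 0.0617% over 2000 genes drawn from those with a total of at least 1000. Levels of scarcer genes were not tested, and that error leaves out the spread between mice. Coordinates and transcript lengths came from GENCODE M21 on GRCm38, where all 44 collagen genes matched, and promoter windows from RefSeq. Python 3.11.15 with pandas 2.3.3, numpy 2.4.6, scipy 1.17.1 and patsy 1.0.2 was used. Alternatives were adjustment over other gene sets, an adjusted p of 0.1, a total of at least 1000, centring on protein-coding genes and removal of trends by splines of 4 degrees of freedom.

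The collagen classes, the other lists and the tests were chosen with earlier results of these data known. Collagen genes named with values are those of types I, III, IV, V, VI, XII, XIII, XIV, XV, XVIII and XXII with a total of at least 100, and the 5 of smallest p in each comparison. From each other list the called genes are named, or else the 2 of smallest p.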

Additional observations from a re-analysis of the deposited data

How the results depend on the processing

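The count of called collagen genes was 0 under every alternative run. The median log2 was less steady. With trends removed it went from 0.19 to 0.11 in G3 against G1 and from -0.19 to -0.10 in G4 against G3. In the difference it went from -0.24 to -0.05. Medians near 0 changed sign, in G4 against G2 from -0.03 to 0.06 with totals of at least 1000 and to 0.0020 over all members, and in G2 against G1 from 0.02 to -0.07 with totals of at least 1000 and to -0.014 with trends removed. Removing trends on GC content, length and total changed the sign of 8 of the 35 genes in G3 against G1, 4 in G4 against G2, 5 in G4 against G3, 2 in G2 against G1 and 7 in the difference. Over the 28 genes named by rule these were 16 values, none called before or after. In G3 against G1 these were Col4a1 at -0.10, Col4a2 at -0.067, Col5a1 at -0.020, Col12a1 at -0.016 and Col23a1 at -0.016. In G4 against G2 they were Col12a1 at 0.33 and Col13a1 at -0.033, and in G4 against G3 Col12a1 at 0.18, Col4a3 at 0.072, Col25a1 at 0.21 and Col23a1 at 0.018. In G2 against G1 they were Col1a2 at -0.014 and Col12a1 at -0.16, and in the difference Col6a3 at 0.045, Col5a2 at 0.13 and Col12a1 at 0.35. Centring on protein-coding genes turned the difference of Col18a1 to -0.0012. The cause was not tested. The trend took 12.6% of the variance of the standardised log2 values in G4 against G3, 9.88% in the difference and from 1.63% to 5.09% in the rest. No paired analysis was possible because values per library were not used here and the labels give no number that groups share. Leaving out single libraries and the DESeq2 fit were not run for the first reason. How far depth limits single genes was not tested.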
